A study of Mus musculus with 4 samples.

Results

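The genes described here bring a resting cell into its next division: the D-type cyclin genes Ccnd1, Ccnd2 and Ccnd3, the E-type cyclin genes Ccne1 and Ccne2, the cyclin-dependent kinase genes Cdk4 and Cdk6, the transcription factor gene E2f1, and the MYC family genes Myc and Mycn. Their accessible chromatin was taken as every ATAC-seq peak that shared at least 1 base with the RefSeq bounds of a gene (GRCm38) extended by 50 kb on both sides. All 10 genes were found in the gene table, and their windows held 88 of the 74777 peaks of the series. No peak fell in more than 1 window. ATAC-seq marks open DNA by the insertion of sequencing adapters with the transposase Tn5.

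The cells were stem cells of the hair follicle, taken from the back skin of female mice at postnatal day 30, sorted by flow cytometry as H2BGFP(+), Sca-1(-), CD34(+) and CD49f(+). The knockout carried K14-H2BGFP, K14Cre and Foxc1 fl/fl, and the control carried K14-H2BGFP and Foxc1 fl/fl without K14Cre, so both genotypes share the floxed Foxc1 alleles and the reporter. The K14 promoter is active throughout the basal skin epithelium, so deletion in this model is not limited to the sorted cells. Each genotype was 1 library, sequenced in 2 runs, and how many animals it came from is not stated in the labels. The deposited values are 1 list of regions for all 4 runs, with 3 columns (chromosome, start and end). It holds no value per genotype, run or sample, so knockout and control cannot be told apart at any peak, no replicate error can be given, and no test was made. Read depth is unknown. The width of a peak, in bp, is the one graded property in the list.

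In mammalian cells, mitogens raise the D-type cyclins, which activate CDK4 and CDK6. These kinases phosphorylate the retinoblastoma protein and release E2F factors such as E2F1, which drive the E-type cyclins and the genes of DNA replication. MYC and MYCN are transcription factors that bind the E-box with their partner MAX and promote growth and cell cycle entry. Hair follicle stem cells spend most of the hair cycle at rest and divide briefly when a new growth phase begins. An accessible promoter is a state of the chromatin and not a measure of transcription.

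For the labelled cell type, a peak lay within 1 kb of a gene bound at all 6 epithelial marker genes examined (Cd34, Itga6, Krt14, Krt15, Lhx2 and Sox9), which were chosen with earlier results known. Such a peak was present at 57.6% of protein-coding genes. Of 8 markers of other skin cell types, 3 also had such a peak. These were the fibroblast collagen gene Col1a1 and the melanocyte genes Dct and Mlana, and their part in the peaks below was not tested. The leukocyte genes Ptprc and Cd3e, the endothelial genes Pecam1 and Cdh5 and the fibroblast receptor gene Pdgfra had none.

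The promoter sequences that carry the contrasts described below are those of Cdk4, Mycn and the pair of Ccnd3 starts. Each run is the 250 bases before a transcription start in the RefSeq promoter table (GRCm38.p6), written 5′ to 3′ on the strand of the gene. In Cdk4, on the plus strand at chr10:127063285-127063534, capitals mark the E-box CACGTG. In Mycn, on the minus strand at chr12:12941837-12942086, they mark matches to the E2F motif TTTNGCGC on either strand, of which 2 overlap and are printed as 1 stretch. In the outer start of Ccnd3, on the plus strand at chr17:47504801-47505050, they mark the forkhead motif TGTTTAC. In its inner start, at chr17:47593217-47593466, they mark CCAAT.
Cdk4: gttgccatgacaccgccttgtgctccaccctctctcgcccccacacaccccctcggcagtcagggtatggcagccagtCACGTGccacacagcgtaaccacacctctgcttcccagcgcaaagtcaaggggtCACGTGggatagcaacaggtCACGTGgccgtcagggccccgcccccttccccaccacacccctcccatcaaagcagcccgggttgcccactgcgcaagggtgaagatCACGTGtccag
Mycn: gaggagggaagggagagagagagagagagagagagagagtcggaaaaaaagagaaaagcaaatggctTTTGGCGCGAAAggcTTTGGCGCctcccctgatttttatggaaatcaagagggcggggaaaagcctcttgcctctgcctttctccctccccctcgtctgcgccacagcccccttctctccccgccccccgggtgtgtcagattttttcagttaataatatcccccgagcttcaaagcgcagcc
Ccnd3 outer start: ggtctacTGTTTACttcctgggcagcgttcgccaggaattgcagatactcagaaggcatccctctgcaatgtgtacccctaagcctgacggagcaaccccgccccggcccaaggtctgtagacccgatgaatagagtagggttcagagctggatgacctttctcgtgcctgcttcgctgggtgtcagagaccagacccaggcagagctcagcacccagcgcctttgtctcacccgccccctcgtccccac
Ccnd3 inner start: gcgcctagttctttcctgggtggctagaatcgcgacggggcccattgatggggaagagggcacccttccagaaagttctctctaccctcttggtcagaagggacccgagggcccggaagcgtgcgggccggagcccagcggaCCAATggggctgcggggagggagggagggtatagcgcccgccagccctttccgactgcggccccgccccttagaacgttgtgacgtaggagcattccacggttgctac

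An accessible gene end was present at 9 of the 10 genes, the exception being Ccnd1. A gene end is the ground within 1000 bp of either bound, and a peak there is called an end peak. In the gene table as a whole, 57.6% of the 21887 protein-coding genes had one. Both ends were accessible at 3 genes, Cdk4, Cdk6 and Myc, where 8.14% of protein-coding genes had peaks at both. In the RefSeq promoter table, which gives the strand and the start, there were 7 entries for 6 of the genes, and Ccnd1, Ccnd2, Ccne2 and Myc were not matched. All 6 matched genes had a peak within 1000 bp of a start, against 58.3% of the protein-coding genes in that table. At each of the 7 starts a peak covered the start base itself, which 53.4% of those genes had at 1 start or more.

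**Figure D1:**
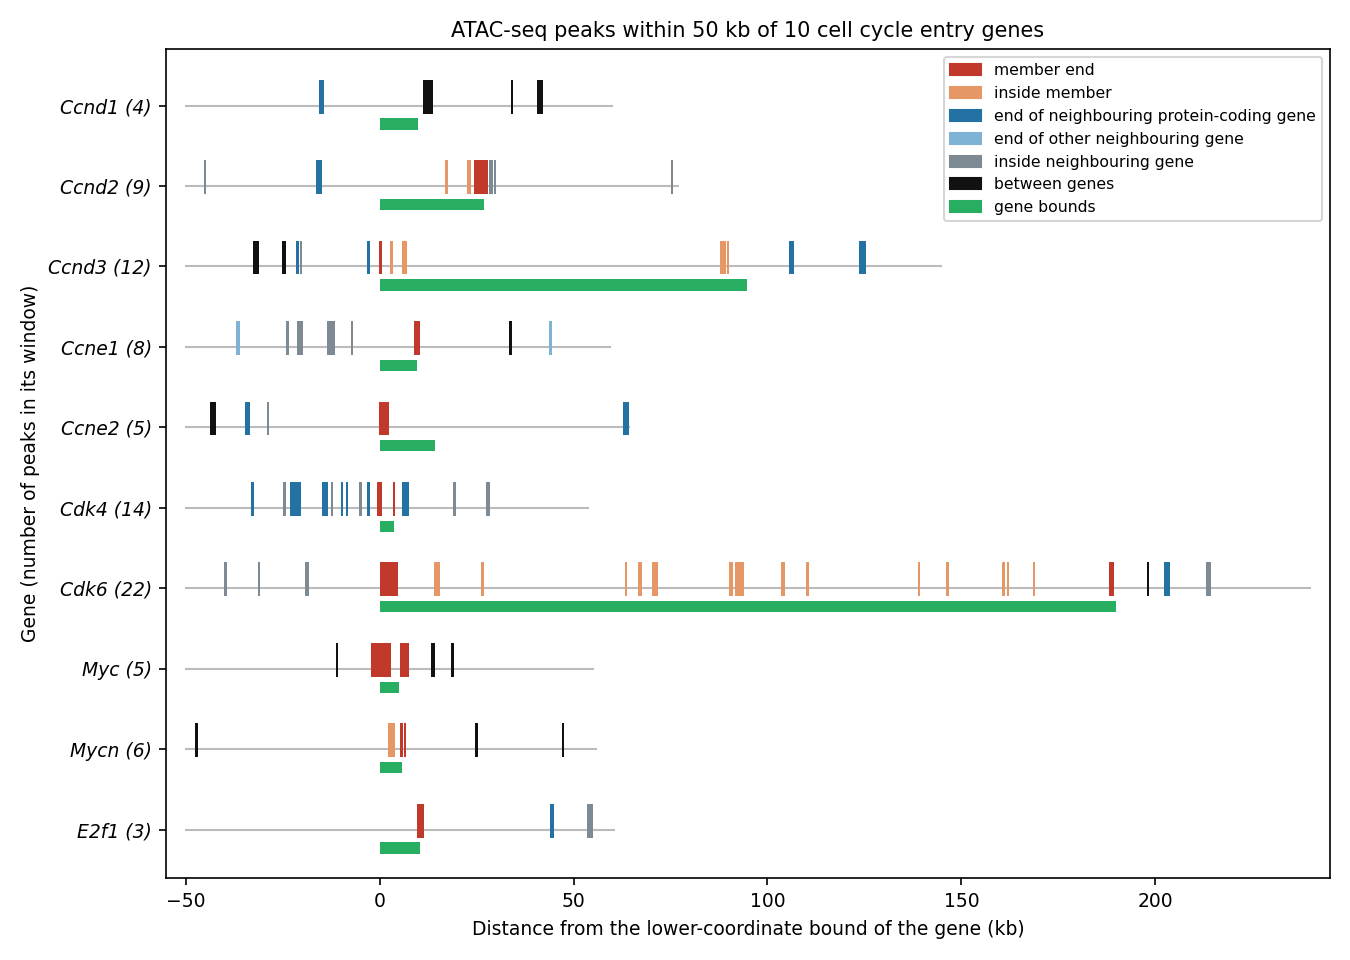
Map of the 88 peaks by gene, with the distance from the lower-coordinate bound of each gene in kb on the horizontal axis and the number of peaks in brackets. Green bars are the gene bounds, grey lines the windows, and coloured blocks the peaks by location, with peaks narrower than 600 bp drawn at that width; Cdk6 holds 22 peaks, most of them inside the gene, and E2f1 holds 3.

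The D-type cyclin genes, which encode the partners of CDK4 and CDK6, had unlike ends. Ccnd1 (chr7:144929931-144939831) had no peak at either end and 0 peaks between its bounds, a state shared by 31.3% of protein-coding genes. Its nearest peak began 1371 bp beyond the upper-coordinate bound and was 2546 bp wide (chr7:144941202-144943747), wider than 97.9% of all peaks in the list. From the lower-coordinate bound the nearest peak on the outer side lay 14282 bp away, at the ends of Bc1 and LTO1, whose own upper bound reaches into Ccnd1. Of the remaining peaks of the Ccnd1 window, one of 391 bp lay 24012 bp and one of 1728 bp lay 30624 bp above the gene, both between genes. The wide peak beside Ccnd1 was therefore counted as an end peak only when the end was widened to 2500 bp.

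Ccnd2 (chr6:127125162-127152188) had the widest end peak of the 3 D-type genes. It spanned 3729 bp (chr6:127149402-127153130), reached 942 bp beyond the upper-coordinate bound, and was wider than the widest end peak of 98.3% of the protein-coding genes with one. The same ground holds the lower-coordinate end of 9330179D12Rik, a long non-coding RNA gene that overlaps the end of Ccnd2, so the peak belongs to both ends. A run of smaller peaks flanked it, with 464 and 940 bp inside Ccnd2 and 1015 and 201 bp beyond it. At the other end of Ccnd2 no peak came nearer than 14919 bp, where peaks of 1131 and 200 bp lay at Tigar, a regulator of glycolysis.

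Ccnd3 (chr17:47505051-47599689) has 2 starts in the promoter table, 88.4 kb apart. The outer start, at the lower-coordinate bound, lay under a peak of 231 bp that covered 52.7% of the 300-base promoter and reached 108 bp upstream and 122 bp downstream. The inner start lay under a peak of 1578 bp that covered all of its promoter and reached 641 bp upstream and 936 bp downstream. An end peak narrower than that of Ccnd3 was found at 1.66% of protein-coding genes with an end peak, so a count of gene ends alone rates Ccnd3 by its narrow outer peak. Between 47512013 and 47592825 on chromosome 17, a stretch of 80.8 kb inside Ccnd3, there was no peak. The other peaks inside the gene were 884 and 1116 bp wide, 2648 and 5846 bp above the outer start, and 273 bp wide just above the inner one.

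The E-type cyclin genes, whose products partner CDK2 at the entry to DNA replication, each had 1 end peak and no other peak between their bounds. At Ccne1 (chr7:38097984-38107490) it was 1658 bp wide, covered the start and all of the promoter, and reached 913 bp upstream and 744 bp downstream. At Ccne2 (chr4:11190433-11204779) it was 2498 bp wide and reached from 126 bp outside the lower-coordinate bound to 2371 bp inside it, over ground shared with the end of the non-coding gene A630034I12Rik. The Ccne2 end peak was wider than that of 91.3% of genes with one, and the Ccne1 end peak wider than that of 68.5%. Around them the windows differed. Ccne1 had 4 peaks inside the neighbouring non-coding gene Gm30771, among them the widest of the window at 2181 bp, 11447 bp below the lower-coordinate bound of Ccne1. Above its end peak Ccne2 had no further peak for 60.4 kb, a stretch that begins inside the gene. The next lay 48462 bp beyond the upper-coordinate bound, at the far end of Ints8, a subunit gene of the Integrator complex.

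Cdk4 and Cdk6 encode the kinases that the D-type cyclins activate, and both had an accessible start and the 2 highest peak densities of the 10 genes. The start peak of Cdk4 (chr10:127063535-127067288) was 1310 bp wide, reached 697 bp upstream and 612 bp downstream, and lay near the median width of widest end peaks (1328 bp). A second, 322 bp wide, covered the other end, which Cdk4 shares with Tspan31. The start of Cdk6 (chr5:3341004-3531008) lies 2889 bp inside the lower-coordinate bound in the promoter table. A peak of 4617 bp (chr5:3341128-3345744) covered it, reached 2765 bp upstream and 1851 bp downstream, and was wider than the widest end peak of 99.3% of genes with one. It also covers the upper end of the non-coding gene Gm36470.

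Most peaks of Cdk6 were in its interior. Of its 22 peaks 14 lay inside the gene and away from its ends, between 200 and 2270 bp wide, and 16 shared bases with the gene in all. Among the 613 protein-coding genes within 20% of its length of 190.0 kb, 90.0% had fewer peaks over the gene and the median was 5. The widest interior peak, 2270 bp, began 91.6 kb above the lower-coordinate bound (chr5:3432580-3434849) beside one of 795 bp. The non-coding gene Gm29868 lies within Cdk6, and 3 of the interior peaks overlap it.

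Cdk4 is short, at 3.754 kb, and most of the 14 peaks in its window lay at or inside neighbouring genes. A total of 7 lay at ends of the protein-coding genes around it, 5 inside such genes, and 2 at Cdk4 itself. The widest, 2633 bp, lay over the overlapping ends of Eef1akmt3 and Mettl1, 20408 bp below Cdk4. Of the other peaks, 3 lay at the ends of Cyp27b1, which encodes the enzyme that activates vitamin D. The density of 13.5 peaks per 100 kb exceeded that of 98.5% of protein-coding genes, in a window that holds 9 other protein-coding genes.

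E2f1 (chr2:154559400-154569892), the gene of a factor released by the retinoblastoma protein, had 1 peak at its upper-coordinate end and none elsewhere in or below the gene. It was 1854 bp wide and covered both the bound and the start in the promoter table, which lies 466 bp inside the bound. The 3 peaks of its window were the fewest among the 10 genes. The other 2 lay above it, 1 at 33376 bp by the end of Pxmp4, a peroxisomal membrane protein gene, and 1 at 42968 bp inside Zfp341. From the end peak of E2f1 down through the gene to the lower edge of the window, 59.5 kb held no peak. The ends of Necab3, Actl10 and 1700003F12Rik and the upper-coordinate end of Cbfa2t2 lie in that stretch.

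Myc (chr15:61985341-61990361) carried the widest of the 88 peaks. It spanned 5345 bp (chr15:61983040-61988384), more than the 5021 bp of the gene, from 2301 bp outside the lower-coordinate bound to 3043 bp inside. Of the genes with an end peak, 99.6% had a narrower widest end peak. A second peak of 2228 bp began 334 bp beyond the upper-coordinate bound, so that the 2 peaks left 2310 bp between them. The other 3 peaks of the window, of 582, 1044 and 674 bp, lay between genes and within 20 kb of Myc. The window ended at 62040361 and so held only the lowest part of Pvt1, the non-coding gene next to Myc (chr15:62037986-62260215). No peak lay in that part, and most of Pvt1 was outside the window.

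Mycn (chr12:12936093-12941836) had narrower peaks at its start. One of 637 bp covered the start and all of the promoter, and one of 690 bp began 416 bp upstream of the start, so its widest end peak exceeded that of 14.3% of genes with one. The widest peak of its window lay inside the gene, 1852 bp from 12938238 to 12940089 on chromosome 12, between 2145 and 3996 bp above its lower-coordinate bound. The remaining peaks, of 538, 640 and 200 bp, lay between genes and 18.9 kb or more from the gene. Neither Myc nor Mycn had another protein-coding gene in its window.

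**Figure D2:**
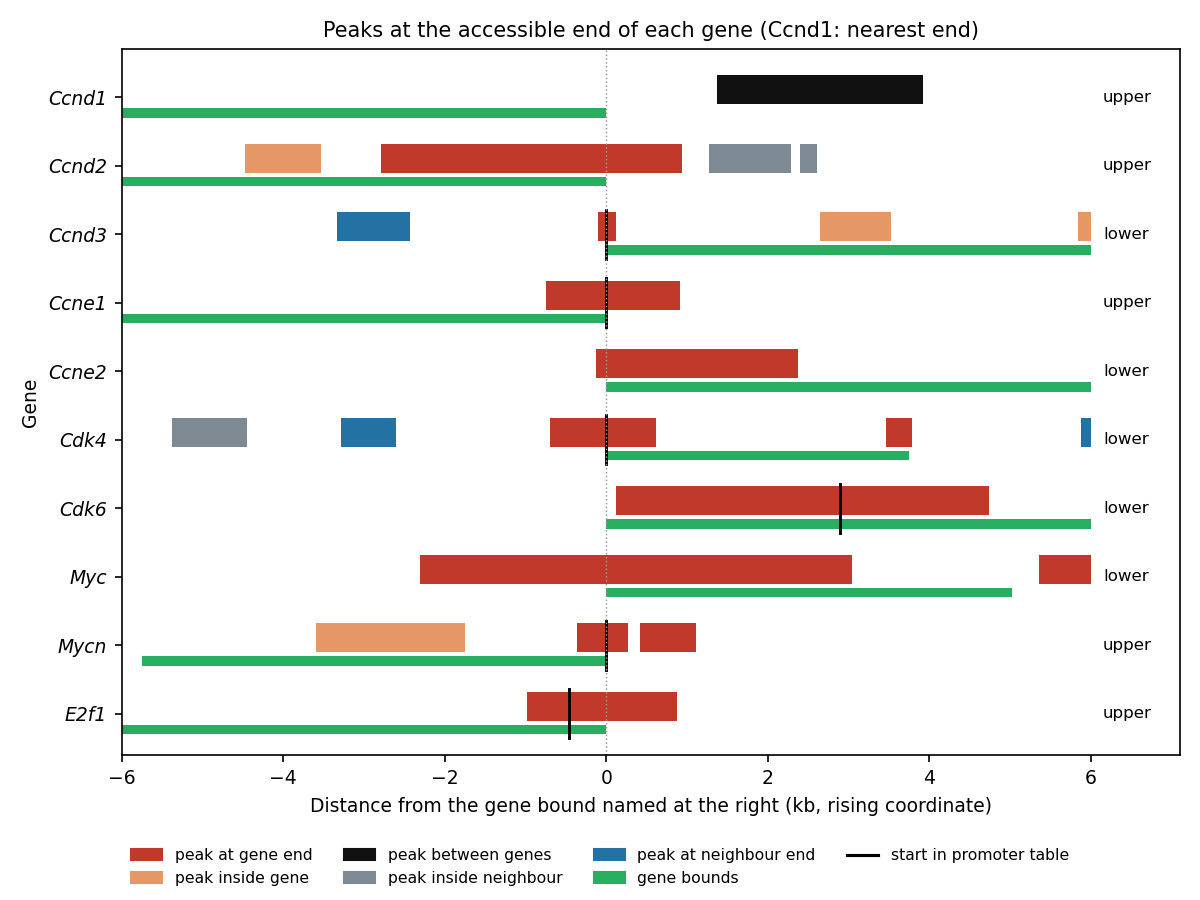
Peaks within 6 kb of the accessible end of each gene, with the distance from the bound named at the right in kb and rising genome coordinate. Red blocks are peaks at the gene end, green bars the gene bounds and black ticks the starts of the promoter table; the blocks of Myc (5345 bp), Cdk6 (4617 bp) and Ccnd2 (3729 bp) are the widest, and Ccnd1 has its nearest block outside the end.

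Side by side, the related genes were unlike each other in the width of the end peak. Myc had 5345 bp and Mycn 690 bp. Cdk6 had 4617 bp and Cdk4 1310 bp. Ccnd2 had 3729 bp, Ccnd3 231 bp at its bounds and 1578 bp at its inner start, and Ccnd1 none. Ccne1 and Ccne2 were the closest pair, with 1658 and 2498 bp. These are single values without replicates, so none of the differences was tested. Over the 9 genes with an end peak the median of the widest was 1854 bp (quartiles 1310 and 3729), and over the 12600 protein-coding genes with one it was 1328 bp (quartiles 912 and 1817). A total of 6 of the 9 lay above that median.

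The windows held between 3 peaks at E2f1 and 22 at Cdk6, with a median of 7, where the median over all protein-coding genes was 5. In order, the counts were 22 at Cdk6, 14 at Cdk4, 12 at Ccnd3, 9 at Ccnd2, 8 at Ccne1, 6 at Mycn, 5 at Myc and at Ccne2, 4 at Ccnd1 and 3 at E2f1. Long genes have longer windows, so each count was set beside genes with a window within 10% of the same length. More peaks than at 97.4% of such genes were found at Cdk4, 89.4% at Cdk6, 80.7% at Ccnd3, 79.3% at Ccnd2 and 77.7% at Ccne1. The share was 63.0% at Mycn, 54.3% at Myc, 45.1% at Ccne2, 42.6% at Ccnd1 and 33.0% at E2f1. Cdk4, Cdk6, Ccnd3, Ccnd2 and Ccne1 were thus rich in peaks for their window length, and E2f1, Ccnd1 and Ccne2 were not.

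Per 100 kb of window the genes had a median of 5.92 peaks, against 3.79 over all protein-coding genes, and 8 of 10 lay above that value. Ccnd1, with 3.64, and E2f1, with 2.72, lay below it. Peaks covered a median of 6.65% of the window bases, against 3.16%, and here all 10 genes lay above. The covered share was highest at Cdk4 (11.8%) and Myc (9.40%) and lowest at Mycn (4.31%) and E2f1 (4.05%). Count and coverage ordered the genes differently. Myc had 5 peaks and 9.873 kb of accessible sequence, of which the single peak at its lower end made up 54.1%. Ccne1 had 8 peaks and 7.676 kb. Ccnd1, with 4 peaks, still had more of its window covered (5.39%) than 72.8% of protein-coding genes, and the peak beyond its upper end made up 43.0% of its peak bases.

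**Figure D3:**
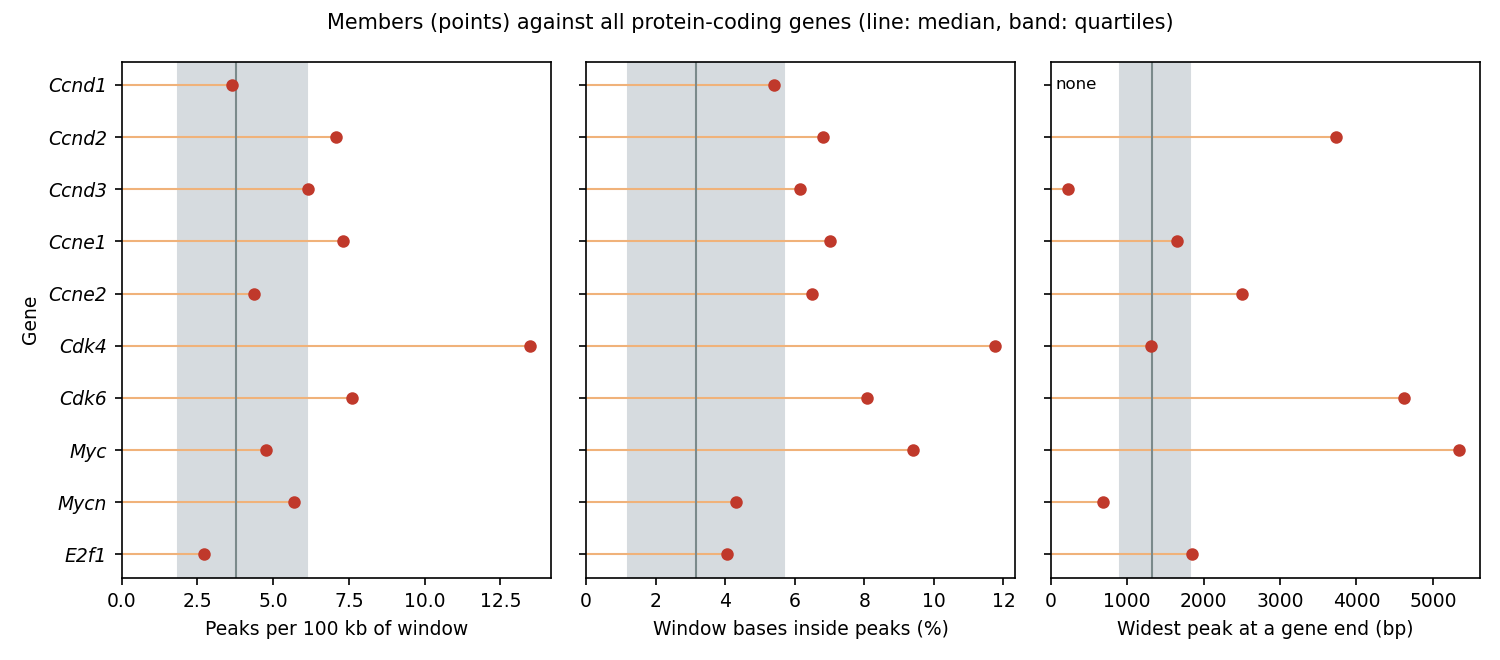
Peaks per 100 kb of window, percent of window bases inside peaks, and width of the widest end peak in bp, each on a linear axis from 0, with 1 point per gene. The grey line and band are the median and quartiles over all protein-coding genes (for width, over those with an end peak); all 10 points lie right of the line in the middle panel, and Cdk4 has the highest density, 13.5.

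The 88 peaks had a median width of 939 bp (quartiles 471 and 1492), where the whole list had 587 bp (quartiles 341 and 1025). Of the 88, 57 (64.8%) were at least as wide as the median of the list, and 5 (5.68%) had the smallest width of the list, 200 bp, which 6.52% of all peaks had. By location, 13 lay at the ends of the 10 genes (median width 1658 bp) and 21 inside them (884 bp). A further 18 lay at ends of neighbouring protein-coding genes (1125 bp), 2 at ends of other genes, 20 inside neighbouring genes (525 bp) and 14 between genes (657 bp). In 5 windows, those of Ccnd2, Ccne2, Cdk6, Myc and E2f1, the widest peak was at an end of the gene itself, and in that of Mycn it was inside the gene. The peak beside Ccnd1 was the widest of the 14 between genes. No reads link a peak to a gene, so the peaks of a window may belong to its neighbours.

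The promoters of the table were searched over 300 bases, 250 before the start and 50 after it, on both strands, with positions counted from the start base as 0. The E-box CACGTG, bound by MYC with MAX among other factors, occurred 4 times in the promoter of Cdk4, with first bases at -172, -118, -98 and -11. It was present at least once in 7.15% of the 32851 promoters listed, and 8 of them held it 4 or more times. All 4 lie inside the Cdk4 start peak. The promoter of Cdk6 held 1 at -220, also inside its peak, and the other 5 entries held none in this window. Among promoters that overlapped a peak 10.2% had an E-box, and among the others 5.02%.

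The E2F motif TTTNGCGC was found in the promoter of Mycn alone among the 7 entries, at -183 and -168 on the strand of the gene and at -179 on the other strand, the first and last of these overlapping. It occurred in 1.38% of all promoters, and 2 promoters in the table held 3 or more. Among promoters with a peak 2.56% had a match, and among those without 0.548%. All 3 matches in Mycn lie inside the 637 bp peak over its start. The GC box GGGCGG, a motif of SP1, was present in 6 of the 7 entries, all but Cdk6, with 5 matches in E2f1 and 4 in Ccne1. It was present in 64.1% of promoters with a peak and 15.7% of those without.

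The forkhead motif TGTTTAC, of the class to which FOXC1 belongs, occurred once, at -243 in the outer promoter of Ccnd3, and in 3.65% of all promoters. The outer peak of Ccnd3 reached 108 bp upstream, so this match lies outside it. CCAAT occurred once, at -108 of the inner Ccnd3 start and inside its peak (37.4% of all promoters). TATAAA occurred at -103 in Cdk6 (13.6%). Cdk4 held CTTTGAT and Mycn CTTTGAA, which are TCF motifs, on the other strand (3.73% and 5.14% of all promoters). AP-1 (TGANTCA) and STAT (TTCNNNGAA) motifs had no match in these windows, and 7.81% and 8.30% of all promoters held one. Among promoters with a peak the shares were 2.68% for TGTTTAC, 38.8% for CCAAT, 6.79% for TATAAA, 2.46% for CTTTGAT and 3.40% for CTTTGAA. They were 5.89% for AP-1 and 6.55% for STAT. A match is a run of letters and not evidence of binding.

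In base composition the outer promoter of Ccnd3 and that of Mycn were the poorest in CpG, with 15 and 14 CpG and a GC content of 59.3% and 56.7%. E2f1 and Ccne1 were the richest, with 48 and 41 CpG and 77.3% and 76.0% GC. Cdk4 had 22 CpG, Cdk6 27 and the inner Ccnd3 promoter 28. Over the table the median was 7 CpG, and 21 among promoters with a peak. The 2 poorest entries were those with the narrowest start peaks, 231 and 637 bp, and E2f1 and Ccne1, the richest, had 1854 and 1658 bp. The widest, 4617 bp, lay at Cdk6 with its intermediate 27 CpG. With 7 entries, 2 of them from 1 gene, no relation was tested.

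The other genes of the pathway were grouped into 4 lists by function, and 34 of 39 had an end peak, beside 57.6% of all protein-coding genes. All 10 genes of the MYC network had one (Mycl, the MYC partner Max, the MAX-binding repressors Mxd1, Mxd3, Mxd4, Mxi1 and Mnt, and Mlx, Mlxip and Mga), with the widest, 3499 bp, at Mnt. All 9 of the other E2F factors and their partners had one, from 200 bp at E2f2, an activating E2F, to 3250 bp at E2f3, which is another. Of 10 CDK inhibitors and pocket proteins 8 had one, among them Rb1 with 2564 bp and Cdkn1b, the gene of p27, with 2105 bp, and Cdkn1a and Cdkn1c had none. Of 10 other G1 to S cyclins, kinases and regulators 7 had one, including Cdk2 with 1571 bp, and Ccna1, Mnat1 and Skp2 had none.

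A missing end peak did not always mean a closed start. In the promoter table Ccna1, Mnat1, Skp2 and Cdkn1a had a peak within 1000 bp of a listed start, since gene bounds span all transcripts and a start can lie inside them. Conversely Tfdp2, a dimer partner of E2F, had a peak at a bound and none at a listed start. Over the 4 lists 32 of the 33 genes in the table had a start peak, beside the 58.3% of all protein-coding genes given above. Their median density was 4.87 peaks per 100 kb, below the 5.92 of the 10 genes and above the 3.79 of all protein-coding genes. Mnt and E2f3 were the widest of the 39, and Myc, Cdk6 and Ccnd2 among the 10 genes exceeded both.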

How the data were processed

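ATAC-seq libraries of sorted hair follicle stem cells, 1 per genotype and sequenced in 2 runs each, were represented by 1 list of regions that the authors deposited as coordinates (unit: other, positions in bp). The submitters' processing notes name build mm10 and the tools Bowtie2, MACS2 and bedtools. For versions, settings, read filters, any Tn5 offset and pooling of reads before peak calling, nothing is stated (not given in the sources used here). Wider peaks can be 1 element or several merged ones. Groups came from the genotype labels, and resequenced runs count as the same library.

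Starts were made 1-based. Genes came from the RefSeq table of GRCm38.p6 (the same primary coordinates as mm10), and starts from the RefSeq promoter table of that build. Counts, widths and motif matches were computed with Python 3.11.15, pandas 2.3.3 and numpy 2.4.6. The counting of peaks and the search for the widest peak were tested on simulated regions. The motif search was checked on short fixed sequences for the E-box and E2F motifs only. A percentile is the share of protein-coding genes with a lower value. Named are all 10 genes, their end peaks, the widest peak of each window, the nearest peaks of Ccnd1, neighbours with peaks and, of each pathway list, genes without an end peak. Other pathway genes with a value (Mnt, E2f2, E2f3, Rb1, Cdkn1b, Cdk2, Tfdp2) and the cell type marker genes were chosen after their values were seen or earlier results were known. The promoter sequences printed, and the motif marked in each, were picked from all entries and motifs searched after the matches were seen. The 10 genes and the lists were chosen with earlier results of these data known. Number of unused columns of per-sample values: 0. The alternatives tried were the size of the end, of the window, the overlap rule and peak width.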

Additional observations from a re-analysis of the deposited data

How the results depend on the processing

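No paired analysis was possible because the list holds no value per sample. The count of genes with an end peak, 9, became 10 with 2500 bp around gene bounds, where Ccnd1 joined (all protein-coding genes: 63.5%). It was 8 among peaks of at least the median width, without Ccnd1 and Ccnd3 (51.6%), and 7 by peak midpoints, without Ccnd1, Ccne2 and Cdk6 (54.2%). It stayed at 9 with 500 bp (54.4%) and without peaks of the smallest width (57.1%). The 6 genes with a start peak kept it under all 4 alternatives tried. The median count per window was 4.5 with 20 kb around the genes and 12 with 100 kb (all protein-coding genes: 3 and 9), and 4 among peaks of at least the median width (3). The median density was 8.17 per 100 kb with 20 kb, 5.62 with 100 kb and 3.80 among the wider peaks, where all protein-coding genes had 3.87, 3.81 and 2.10. The median covered share was 8.49% with 20 kb and 5.83% with 100 kb (3.17% in both for all protein-coding genes). For these settings the cause of each shift is the changed ground or list. By gene, the counts ran from 1 at Ccne2 and E2f1 to 19 at Cdk6 with 20 kb, and from 5 at Ccnd1 to 28 at Cdk6 with 100 kb. With no scores, read counts or depth in the list, an absent peak cannot be told from a weak one or from low coverage.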

Other observations

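The ground was also counted up to 500 kb from each gene, a distance chosen after the windows had been seen. Myc had 35 peaks there, 15 below, 1 over and 19 above the gene, with 0 other protein-coding genes, and its density of 3.48 per 100 kb lay near the 3.64 that was the median of all protein-coding genes. Mycn had 26 peaks with 2 other protein-coding genes (2.59 per 100 kb), and Ccne1 had 24 (2.38), more than 19.7% of protein-coding genes. Ccnd1 had 30 peaks, of which 23 lay above the gene, on the side of its wide neighbouring peak, and 7 below. Ccne2, which had a middling count within 50 kb, had 54 peaks (5.32 per 100 kb), more than 85.9% of protein-coding genes. At this distance the densities of Cdk4 and Cdk6 were 5.38 and 3.87, and Cdk6 exceeded 56.0% of protein-coding genes. The 5345 bp peak of Myc and the 2546 bp peak beside Ccnd1 were also the widest within 500 kb of those genes.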
